A study of Mus musculus with 8 samples.

Results

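The proteasome genes of mouse intestinal organoids, epithelial cultures grown from the gut, were compared between 4 untreated samples and 4 exposed to TGF-beta. They were chosen by symbol: every annotated gene whose name begins with Psma, Psmb, Psmc, Psmd, Psme or Psmg and a number, which gave 49 of 19057 named genes and 86 of 45281 probes. The rule itself uses no expression value, but it was chosen with earlier results of these data known. Of the 49 genes, 41 had a probe that passed the detection filter (detection p under 0.05 on at least 4 of the 8 arrays) and were tested, out of 9062 tested genes, through 64 tested probes. The other 8, Psma1, Psma3, Psma6, Psma8, Psmb11, Psmc6, Psmd3 and Psmg4, had no probe that passed this filter, and 1 of the Psmc6 probes was detected on 1 untreated array.

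All 8 samples shared a C57Bl background, mice aged 3 to 4 months, a mutated Apc (called deleted in the series' design text), tamoxifen, and medium without growth factors after the tamoxifen. The treated group then had TGF-beta at 3 ng/ml for 18 h. Organoids with intact Apc were not analysed here, and the labels name neither the Cre driver nor whether the replicates came from separate animals or cultures, so p-values measure only the spread between these samples. RNA was hybridised to Illumina bead arrays, 1 per sample, and values are normalized log2 intensities.

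The proteasome is the protease complex that degrades proteins tagged with ubiquitin. Its barrel-shaped core particle is built of alpha rings, which gate the entrance, and beta rings, whose catalytic subunits cut the substrate inside. A regulatory particle with a ring of ATPases and a lid binds and unfolds the substrate, other activators can cap the core instead, and dedicated chaperones put the parts together. In cells that receive interferon, and in immune cells, inducible catalytic subunits replace the constitutive ones to form the immunoproteasome, which favours peptides for antigen presentation.

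Between 14554 and 16626 probes per array were detected. Replicates 1 and 4 stood apart from replicates 2 and 3 in both groups. Xist, which is transcribed from the inactive X chromosome of female cells, ranged from 4.45 to 4.69 in the former and from 9.30 to 10.18 in the latter, so the groups are balanced for this division and effects within each set are given where they differ. All 9 epithelial markers passed the detection filter, 8 of them on all 8 arrays and Epcam on 0 untreated and 4 TGF-beta arrays. Their summed linear intensity was 21074 to 24931 in untreated and 46222 to 56099 in TGF-beta samples. The bright keratins weigh most in that sum: 6 markers rose, Krt8, Krt18 and Krt19 among them, but Cdx2, an intestinal transcription factor, fell 2.05-fold (limma adjusted p = 0.0019), and Cdx1 (-0.38) and Cldn7 (+0.18) did not pass. Of 6 fibroblast markers 5 were detected on no array, and of 4 endothelial markers 0 were detected on all arrays. Of the 5 immune markers with a probe, only Cd3e was detected on all arrays, and Laptm5 on 7. The immune sum was 141 to 203 in untreated and 185 to 220 in TGF-beta samples, and its part in any result below was not tested. That sum includes Ptprc, Itgam and Cd52, which failed the detection filter. Fewer cells of a type and less RNA per cell cannot be told apart in such whole cultures.

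Subunits of the core and regulatory particles gave no call, with differences between -0.39 and +0.39 on the log2 scale for the 26 tested, whereas 2 of the 3 tested chaperones that assemble the core fell with TGF-beta, 1 of them (Psmg1) at the edge of the threshold. Of the 41 tested genes, 0 rose and 3 fell (limma, Benjamini-Hochberg adjusted p under 0.05); an unadjusted p under 0.05 was reached by 1 with a higher and 5 with a lower level, and by 14.9% (higher) and 18% (lower) of all tested genes. Across all tested genes 9.57% rose and 9.88% fell. The 3 that fell were the core assembly chaperones Psmg1 and Psmg2, and Psmc3ip, a recombination cofactor whose symbol carries the prefix although it is no proteasome subunit. The median difference of the 41 genes, TGF-beta minus untreated, was -0.03 on the log2 scale, beside -0.05 over all 9062 genes. A difference smaller than 0.5 in size was seen for 39 of the 41 genes (95.1%) and for 73.5% of all genes. The median standard error (SE) of the difference was 0.147 for the 41 and 0.179 for all genes. Values of the 2 groups did not overlap for 5 of the 41, against 24.8% of all genes.

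The direction of the small differences depended on the scaling. Of the 41 genes 17 lay above 0 after quantile normalization, 9 after median scaling, which moved the median of all genes to -0.18 and that of the proteasome genes to -0.16, and 23 after cyclic loess, with medians of -0.01 and +0.03. When the replicate number was fitted as a block, 1 proteasome gene was higher (Psmd8) and 5 were lower (Psmd7, Psmg1, Psmg2, Psmg3 and Psmc3ip), while 14.4% of all genes were higher and 17.3% lower.

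**Figure D1:**
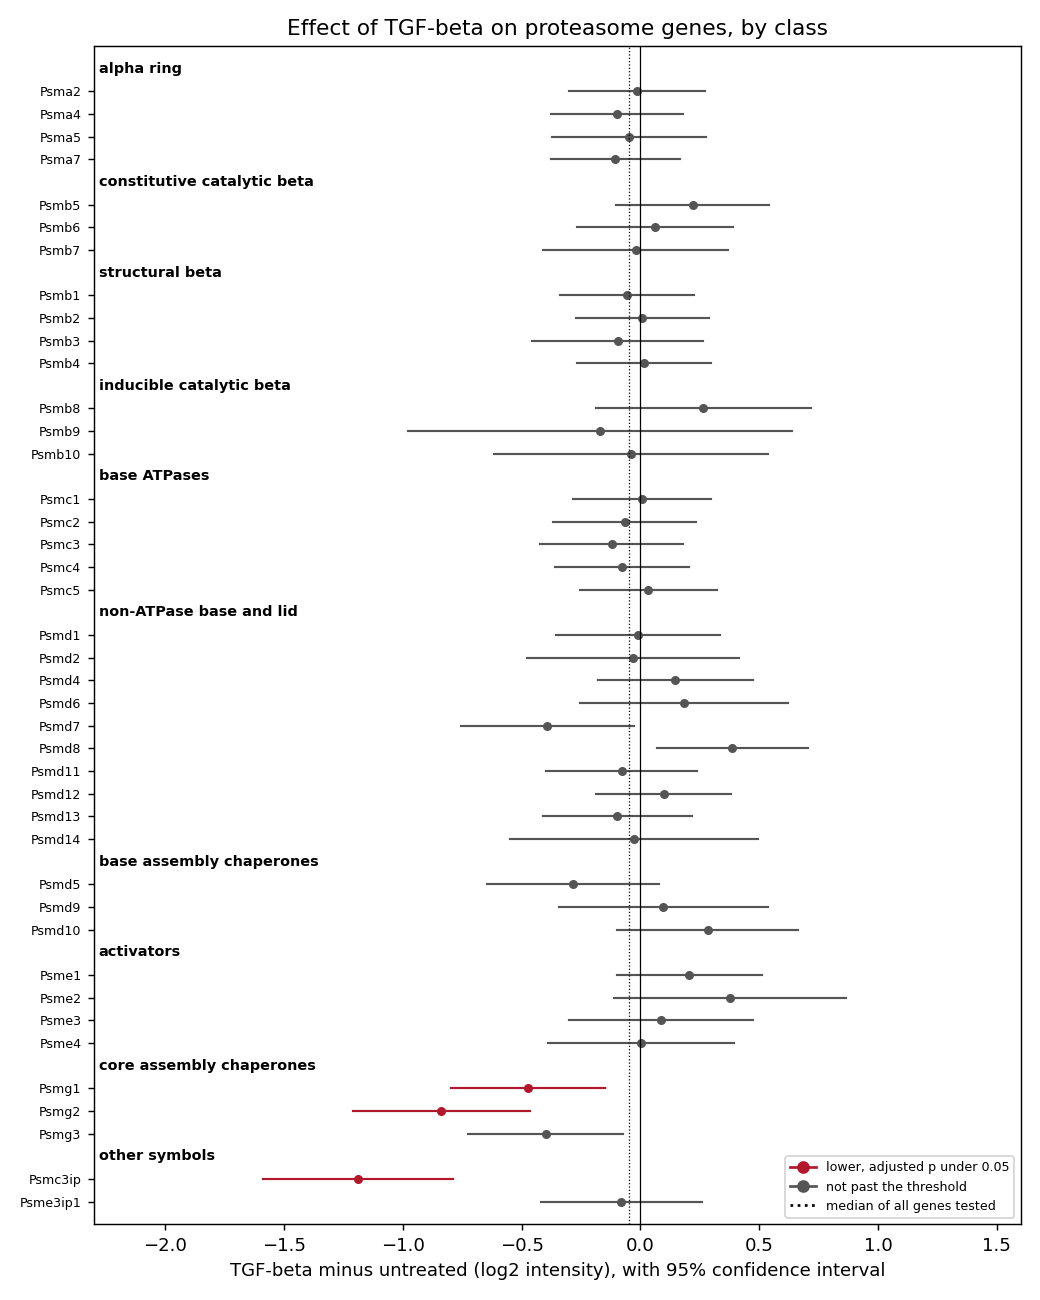
Difference between TGF-beta and untreated samples (horizontal axis, log2 intensity) for each of the 41 tested genes (vertical axis, grouped by class); points are estimates, lines are 95% confidence intervals from limma and the dotted line is the median of all tested genes. Core subunits and most regulatory subunits lie near 0, with Psmd7 (-0.39) and Psmd8 (+0.39) the furthest from it among them. The 3 genes in red, Psmg1, Psmg2 and Psmc3ip, are those past the threshold.

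The core assembly chaperones were the class with the most genes past the threshold. Psmg1 and Psmg2 form a heterodimer, and Psmg3 and Psmg4 another, that guide the building of the alpha ring and are not part of the finished particle. Of the 3 tested genes of the class 2 passed the threshold, and the class median was -0.47. The TGF-beta value was the lower one in all 4 numbered pairs for each of the 3; the same held for 7 of the 41 proteasome genes and for 27.4% of all tested genes, while 4 of the 41 and 21.5% of all had the higher value in all 4 pairs. Psmg4 was not detected.

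Psmg2 read 9.28, 9.24, 9.19 and 9.31 in untreated replicates 1 to 4 and 8.87, 8.12, 8.33 and 8.35 with TGF-beta. Every treated sample lay below every untreated one, with the least distance in replicate 1. The mean fell from 9.26 ± 0.05 to 8.42 ± 0.32 (SD, n = 4), a difference of -0.84 (SE 0.168, 1.79-fold lower, limma adjusted p = 0.0069). Its difference was -0.69 in replicates 1 and 4 and -0.99 in replicates 2 and 3. It passed the threshold without any one sample, with adjusted p from 0.0020 to 0.022, though not in replicates 1 and 4 alone (adjusted p = 0.064). A second Psmg2 probe fell too, by 0.59 on the log2 scale (adjusted p = 0.018). The third, which 1 TGF-beta array did not detect, gave -0.75 and did not pass (adjusted p = 0.159).

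Psmg1, the partner of Psmg2, read 8.14, 8.37, 8.27 and 8.23 in untreated and 7.50, 7.84, 8.03 and 7.75 in TGF-beta replicates 1 to 4. The groups did not overlap, and replicate 1 was the lowest sample in each. The means were 8.26 ± 0.10 and 7.78 ± 0.22 (SD, n = 4), and the difference of -0.47 (SE 0.147, 1.39-fold lower) passed narrowly (limma adjusted p = 0.0495). It still passed without TGF-beta replicate 3 (adjusted p = 0.035) and missed the threshold when any other single sample was left out, with adjusted p up to 0.123. It also missed it after median scaling (adjusted p = 0.055) and cyclic loess (adjusted p = 0.069), and reached 0.022 with the replicate block.

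Psmg3 had 8.62, 8.35, 8.35 and 8.67 in untreated and 8.05, 7.89, 8.25 and 8.20 in TGF-beta replicates 1 to 4. Here too all treated values lay below all untreated ones, but the gap was narrow. The difference of -0.40 (SE 0.147, 95% confidence interval -0.72 to -0.07) did not pass in limma (adjusted p = 0.090), and did with the replicate block (adjusted p = 0.049).

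To set chaperones beside subunits, the 250 bases before the annotated gene start of Psmg1, which fell, and of its classmate Psmg3, which did not pass, are shown with those of Psmb5 and Psmb6, catalytic subunits that did not pass. No window is shown for Psmg2 or for the catalytic subunit Psmb7. The sequences are RefSeq's, build GRCm38.p6, read 5′ to 3′ on the strand of the gene. Capitals mark matches to the motifs searched for.
Psmg1, chr16:95990961-95991210, minus strand: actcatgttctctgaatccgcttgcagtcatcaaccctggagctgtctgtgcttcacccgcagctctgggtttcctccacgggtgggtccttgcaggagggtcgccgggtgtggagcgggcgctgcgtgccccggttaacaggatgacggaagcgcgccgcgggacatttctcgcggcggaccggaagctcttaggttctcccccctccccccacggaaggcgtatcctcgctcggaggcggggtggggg
Psmg3, chr5:139826895-139827144, minus strand: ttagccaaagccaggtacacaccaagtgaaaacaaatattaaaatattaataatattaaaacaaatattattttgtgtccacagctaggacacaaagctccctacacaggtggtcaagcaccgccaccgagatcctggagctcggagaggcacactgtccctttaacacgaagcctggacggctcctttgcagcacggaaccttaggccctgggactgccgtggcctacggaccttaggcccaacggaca
Psmb5, chr14:54617996-54618245, minus strand: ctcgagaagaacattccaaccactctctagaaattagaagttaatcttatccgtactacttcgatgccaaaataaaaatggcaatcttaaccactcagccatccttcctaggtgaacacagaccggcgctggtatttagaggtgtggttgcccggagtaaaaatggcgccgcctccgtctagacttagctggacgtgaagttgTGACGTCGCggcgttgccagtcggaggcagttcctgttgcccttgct
Psmb6, chr11:70525107-70525356, plus strand: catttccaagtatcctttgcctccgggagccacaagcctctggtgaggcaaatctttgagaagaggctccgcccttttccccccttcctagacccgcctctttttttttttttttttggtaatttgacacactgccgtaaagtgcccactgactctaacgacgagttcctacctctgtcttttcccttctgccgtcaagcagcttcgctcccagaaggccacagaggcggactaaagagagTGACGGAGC
The motifs, searched on both strands, were TGACNNNGC, the core of the antioxidant response element through which the factor Nfe2l1 is known to drive proteasome genes, CCAAT, the E-box CACGTG, and GAAA followed by 2 bases of any kind and GAAA again, a core of interferon-stimulated elements; the spellings do not overlap each other. A window was found for 41 of the 49 genes, with 45 windows in all. TGACNNNGC occurred in 11.1% of these windows, among them that of Psmb5, starting 47 bases before the start, and that of Psmb6, starting 9 bases before it, and in 10.2% of all 32851 windows. The CCAAT box was in 35.6% of the proteasome windows and 33.8% of all. The E-box was in 11.1% (5 windows) and 6.02%, and the interferon-type core in 6.67% (3 windows) and 2.98%. Those 3 windows were of Psmb3, Psmd4 and Psmd9, none of them an inducible catalytic subunit or Psme1 or Psme2. None of these letters is in the printed windows of Psmg1 and Psmg3. TGACNNNGC was in 5 of the 45 proteasome windows, those of Psmb5, Psmb6, Psmc6, Psmd12 and Psmd9, the last a chaperone of the ATPase base. Most subunit windows lacked it too, so the printed windows do not show a contrast between chaperones and subunits.

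**Figure D2:**
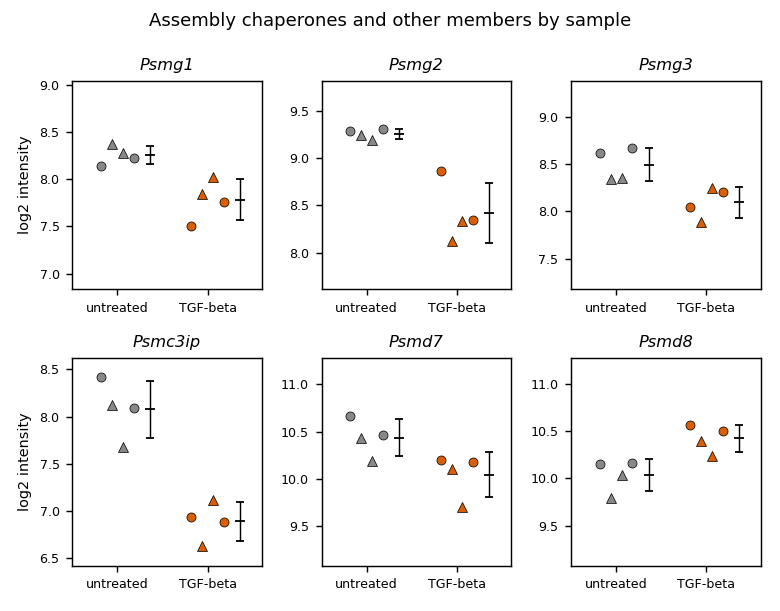
Normalized log2 intensity (vertical axis, 1 panel per gene, each spanning the same range) in untreated (grey) and TGF-beta (orange) samples; circles are replicates 1 and 4, triangles replicates 2 and 3, and bars mean ± SD of 4 samples. The groups are apart for Psmg1, Psmg2, Psmg3, Psmc3ip and Psmd8, and overlap for Psmd7.

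Psmc3ip had the smallest adjusted p under the symbol rule. It encodes a partner of Mnd1 that helps recombinases pair homologous DNA. Its values were 8.42, 8.13, 7.68 and 8.09 in untreated and 6.94, 6.63, 7.12 and 6.88 in TGF-beta replicates 1 to 4, so that the highest treated sample was still below the lowest untreated one. It was 2.28-fold lower, with a difference of -1.19 (SE 0.180, limma adjusted p = 0.0017), and passed within each set of replicates (-1.34 and -1.03, adjusted p = 0.0037 and 0.025). Psme3ip1, the other gene that carries the prefix without being a subunit, encodes a protein that binds the activator Psme3 and gave -0.08 (adjusted p = 0.774). Without these 2 genes, 0 of 39 proteasome genes rose and 2 fell, and their median was -0.02.

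For the core particle, 11 of 15 constitutive genes were tested, and 0 rose and 0 fell (limma, 0 in either direction at an unadjusted p under 0.05). Their differences ran from -0.11 to +0.22 with a median of -0.02. Every 95% confidence interval, taken gene by gene without adjustment, lay between -0.46 and +0.54, which is within a 1.5-fold change in either direction. Among all tested genes 34.8% had an interval wholly within those 1.5-fold limits, a share that depends on closeness to 0 as well as on width.

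The constitutive catalytic subunits are Psmb5, with chymotrypsin-like activity, Psmb6, with caspase-like activity, and Psmb7, with trypsin-like activity. Psmb5 read 8.09, 8.17, 8.26 and 8.58 in untreated and 8.49, 8.42, 8.63 and 8.44 in TGF-beta replicates 1 to 4. Untreated replicate 4 lay among the treated samples, and the difference was +0.22 (SE 0.145, interval -0.10 to +0.54, adjusted p = 0.345). Psmb6 gave 10.85, 10.73, 10.79 and 10.63 untreated and 10.73, 10.61, 11.13 and 10.77 treated, a difference of +0.06 (adjusted p = 0.828). Psmb7 gave 10.98, 10.55, 10.99 and 10.86 against 10.63, 10.64, 11.23 and 10.79, a difference of -0.02 (adjusted p = 0.958). TGF-beta replicate 3 was the highest of the 8 samples for all 3 of these genes, and the groups overlapped in each. The 4 tested probes of Psmb7 ranged from -0.05 to +0.18, and 0 passed.

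The other beta subunits, Psmb1 to Psmb4, have no catalytic site and form the ring around the catalytic ones. Their differences ran from -0.10 for Psmb3 to +0.01 for Psmb4, with adjusted p of 0.744 or more. Of the 8 alpha ring genes, Psma2, Psma4, Psma5 and Psma7 were tested. All 4 were below 0, by 0.01 to 0.11 on the log2 scale, and none passed (adjusted p of 0.613 or more). Psma8, which replaces Psma7 in the testis, and Psmb11, the thymus-specific catalytic subunit, were detected on no array.

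**Figure D3:**
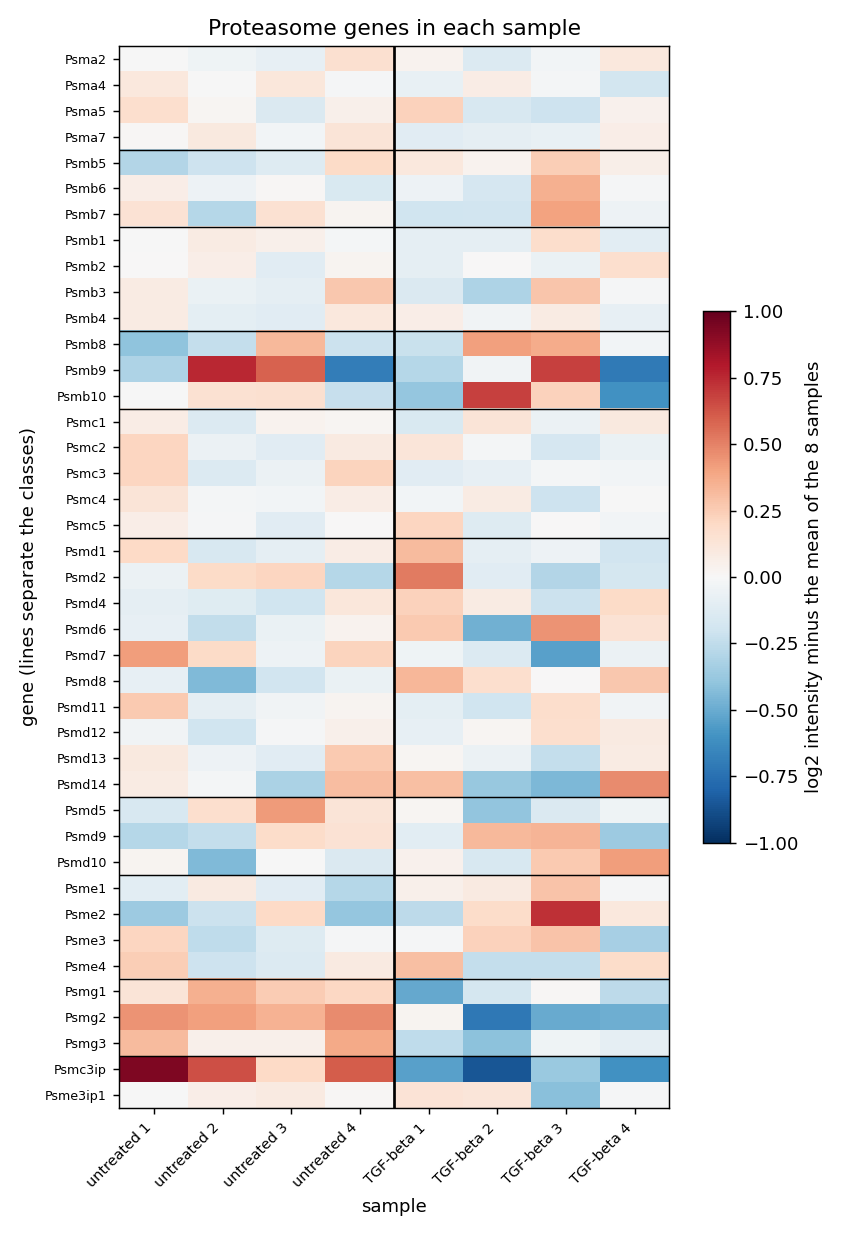
Normalized log2 intensity minus the gene's mean over the 8 samples (colour, red above and blue below) for the 41 tested genes (rows, with lines between classes) in each sample (columns, untreated left of the thick line). In the lines of Psmg1, Psmg2, Psmg3 and Psmc3ip every untreated sample is redder than every TGF-beta sample, and Psmb9 and Psmb10 are redder in replicates 2 and 3 than in replicates 1 and 4 of the same group.

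In the regulatory particle, 15 of 17 genes were tested, and 0 passed the limma test in either direction, while 1 higher and 1 lower gene had an unadjusted p under 0.05. Psmc1 to Psmc6 encode the ATPases that unfold the substrate and push it into the core. For Psmc1 (+0.01), Psmc2 (-0.07), Psmc3 (-0.12), Psmc4 (-0.08) and Psmc5 (+0.03), adjusted p was 0.604 or more and every interval lay between -0.42 and +0.32. Both probes of Psmc6 failed the detection filter.

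The non-ATPase subunits gave the widest differences of the particle, in Psmd7 and Psmd8, which both lie in the lid. Psmd7 read 10.66, 10.43, 10.19 and 10.46 in untreated and 10.20, 10.10, 9.70 and 10.18 in TGF-beta replicates 1 to 4. It was lower in each numbered pair, but untreated replicate 3 lay just below TGF-beta replicate 1. The difference of -0.39 (SE 0.164) did not pass in limma over all 8 samples (adjusted p = 0.132) and did with the replicate block (adjusted p = 0.038). Its other probes gave -0.08 and -0.32 and did not pass.

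Psmd8 had the opposite sign, with 10.15, 9.79, 10.04 and 10.17 in untreated and 10.56, 10.40, 10.24 and 10.50 in TGF-beta replicates 1 to 4. The groups did not overlap, and its difference was +0.39 (SE 0.143, interval +0.07 to +0.71, limma adjusted p = 0.092). With the replicate block the adjusted p was 0.048, without background correction 0.034 and on the authors' deposited log2 values 0.033.

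Psmd4, a receptor for ubiquitin chains, gave 11.87 ± 0.13 and 12.02 ± 0.20 (SD, n = 4; adjusted p = 0.554). Psmd14, the metalloprotease that removes the chains, gave 8.21 ± 0.26 and 8.18 ± 0.47 (adjusted p = 0.957). Psmd11, a lid subunit linked to assembly of the complete particle, gave 6.96 ± 0.15 and 6.88 ± 0.16 (adjusted p = 0.761). Values of both groups overlapped for each. The 3 chaperones of the ATPase base split in direction, with -0.28 for Psmd5, +0.10 for Psmd9 and +0.28 for Psmd10, and 0 passed (limma, 0 in either direction at an unadjusted p under 0.05). Psmd10, known as gankyrin, was higher in all 4 numbered pairs on each of its 3 probes, by +0.28 to +0.44 on average, with adjusted p of 0.194 or more. With the replicate block its brightest probe did not pass (adjusted p = 0.146) and the other 2 did (adjusted p = 0.044 and 0.034). Psmd9 was detected on 2 arrays of each group.

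The inducible catalytic subunits Psmb8, Psmb9 and Psmb10 replace Psmb5, Psmb6 and Psmb7 in the immunoproteasome. Of the 3 tested, 0 rose and 0 fell (limma, 0 in either direction at an unadjusted p under 0.05), and their intervals were wider than those of the constitutive subunits, from -0.98 to +0.72. Psmb8 read 5.91, 6.07, 6.63 and 6.10 in untreated and 6.09, 6.72, 6.69 and 6.28 in TGF-beta replicates 1 to 4, higher in every numbered pair by between 0.05 and 0.65, with overlapping groups and a mean difference of +0.27 (SE 0.204, adjusted p = 0.424).

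Psmb9 and Psmb10 followed the sets of replicates rather than the groups. Psmb9 read 5.48, 6.54, 6.37 and 5.09 untreated and 5.50, 5.75, 6.47 and 5.08 treated, with 3 arrays of each group detecting it. All 4 samples of replicates 2 and 3 lay above all 4 of replicates 1 and 4, with means of 6.28 ± 0.36 and 5.29 ± 0.23 (SD, n = 4), and TGF-beta minus untreated was -0.17 (SE 0.364, adjusted p = 0.801). The lowest detected signal of an array was 5.04 to 5.23, so the lower values of Psmb9 lie at the edge of detection. Psmb10 read 8.68, 8.83, 8.84 and 8.45 untreated and 8.30, 9.36, 8.91 and 8.08 treated, and again replicates 2 and 3 lay above replicates 1 and 4, at 8.98 ± 0.25 and 8.37 ± 0.25. Its TGF-beta difference was -0.04 (SE 0.260, adjusted p = 0.943), made of -0.38 in replicates 1 and 4 and +0.30 in the others. A second Psmb10 probe gave -0.39 and -0.10 in these sets. On that probe the sets overlapped, with TGF-beta replicate 3 (8.61) below untreated replicate 1 (8.68).

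Across the 41 genes, 7 (17.1%) had values that did not overlap between the sets, and 15% of all tested genes did. Besides Psmb9 and Psmb10, the only 2 that were higher in replicates 2 and 3, these were Psma2, Psma5, Psmd13, Psmd14 and the activator Psme4, all lower there. Psmd14 averaged 8.49 ± 0.16 in replicates 1 and 4 and 7.91 ± 0.19 in replicates 2 and 3. All these values are from the brightest tested probe of each gene. A dimmer tested probe of Psmb10, Psmd14 and Psme4 overlapped between the sets. For Psme4 it read 6.12 and 6.08 in untreated replicates 2 and 3, above 5.61 and 5.88 in untreated replicates 1 and 4. With TGF-beta it read 5.71 and 5.15 against 5.82 and 6.06. These contrasts are described without a test, since the sets were read from the arrays and not from the labels.

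The 4 activator genes gave differences from 0.00 to +0.38, and none passed. Psme1 and Psme2 encode the subunits of the interferon-inducible cap that opens the core gate for peptides, Psme3 a nuclear relative of it, and Psme4 a large single-chain activator. Of the 4, 0 rose and 0 fell (limma, 0 in either direction at an unadjusted p under 0.05), with a median of +0.15. Psme2 read 7.09, 7.23, 7.65 and 7.06 in untreated and 7.18, 7.63, 8.17 and 7.55 in TGF-beta replicates 1 to 4. It was higher in all 4 pairs, and the groups overlapped (+0.38, SE 0.220, interval -0.11 to +0.87, adjusted p = 0.280). Both probes of Psme1 gave +0.21 (adjusted p = 0.354 and 0.415). Psme3 gave +0.09 over all samples (adjusted p = 0.791), from -0.28 in replicates 1 and 4 and +0.45 in the others. Psme4 gave 0.00 (SE 0.176, adjusted p = 0.997) on its brightest probe. A dimmer Psme4 probe gave -0.24 (limma adjusted p = 0.488), from +0.20 in replicates 1 and 4 and -0.67 in the others.

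**Figure D4:**
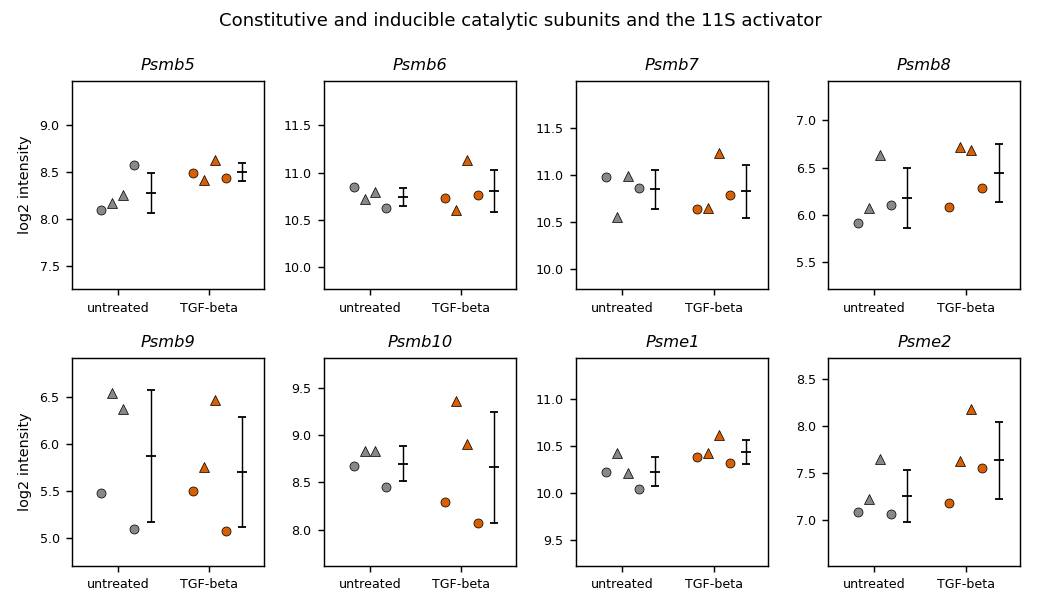
Normalized log2 intensity (vertical axis, 1 panel per gene, each spanning the same range) in untreated (grey) and TGF-beta (orange) samples; circles are replicates 1 and 4, triangles replicates 2 and 3, and bars mean ± SD of 4 samples. The groups overlap in every panel, and in Psmb9 and Psmb10 the triangles lie above the circles.

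Differences in the effect of TGF-beta between the sets were tested as an interaction. None of the 41 genes passed (limma, 0 past the threshold, 3 at an unadjusted p under 0.05: Psmb10, Psmd2 and Psme3). Of all genes 0.011% passed, and 10.1% had an unadjusted p under 0.05. For 19 of the 41 the estimated effect had opposite signs in the 2 sets. The share over all tested genes was not computed, so this count cannot be read as particular to these genes. The fallen chaperones and Psmc3ip had the same sign in both sets. Within replicates 1 and 4 alone 1 proteasome gene was lower, and within replicates 2 and 3 alone 2 were, with 0 higher in either; of all genes 8.74% rose and 8.81% fell in the former and 9.15% rose and 9.21% fell in the latter.

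**Figure D5:**
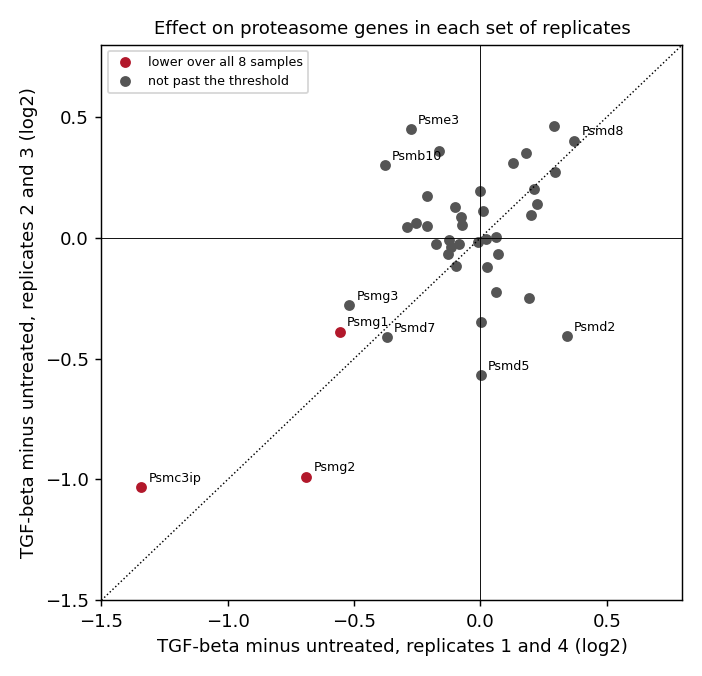
TGF-beta minus untreated in replicates 1 and 4 (horizontal axis, log2) against replicates 2 and 3 (vertical axis, log2) for the 41 tested genes; the dotted line marks equal differences. Psmc3ip, Psmg1, Psmg2 and Psmg3 lie in the lower left, Psmd8 in the upper right, and Psme3, Psmb10 and Psmd2 have opposite signs in the sets.

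Several probes were tested for 17 of the genes. Their differences spread by a median of 0.08 between the probes of a gene and by at most 0.42, for Psmd1, where 2 probes gave -0.01 each and the dimmest one gave +0.41 (adjusted p = 0.245). Of the 64 tested probes 0 were higher and 4 lower (limma), and Psmg2 was the only gene whose tested probes differed in call. Of the 86 probes, 57 were detected on all 8 arrays and 20 on none. Psma1, Psma3 and Psma6 encode alpha subunits that a complete core contains, and each had 1 probe, detected on no array, so a missing signal does not show that a gene is off.

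Partner genes of the proteasome were taken from a list of 34, of which 22 had a named probe and 19 were tested. Across all tested genes 9.57% rose and 9.88% fell, and at an unadjusted p under 0.05 in limma 14.9% were higher and 18% lower. Among the 19 partner genes 1 rose and 0 fell (limma, the same counts at an unadjusted p under 0.05), with a median of -0.04. The gene that rose was Zfand2a, an arsenite-inducible protein that binds the proteasome, which went from 7.76 ± 0.16 to 8.68 ± 0.29 (SD, n = 4; 1.89-fold, adjusted p = 0.0049). Pomp, the chaperone that matures the core, gave -0.01 (adjusted p = 0.976). Nfe2l1, the factor that drives proteasome genes when protease activity is short, gave 9.52 ± 0.08 and 9.74 ± 0.08 with groups that did not overlap, a difference of +0.22 (SE 0.122, adjusted p = 0.253). The groups did not overlap for 24.8% of all tested genes. Nfe2l2, from the same list, was lower in all 4 numbered pairs with overlapping groups (-0.42, SE 0.217, limma adjusted p = 0.225). Of the 19 partner genes 7 lay above 0 and 12 below, and 3 were higher and 5 lower in all 4 pairs. Among all tested genes 21.5% were higher and 27.4% lower in all 4 pairs. Pomp, Nfe2l1 and Nfe2l2 were chosen after their values were seen.

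Genes of antigen presentation and interferon signalling, set beside the immunoproteasome subunits, were higher in part. Of 26 listed, 17 were tested, 4 rose and 0 fell by limma, and 6 had an unadjusted p under 0.05, each of them higher, with a median of +0.27. Jak2, a kinase of the interferon gamma receptor, was 1.69-fold higher (adjusted p = 0.0043), its receptor chain Ifngr2 1.83-fold (adjusted p = 0.021) and the transcription factor Irf1, which is known to activate Psmb9, 1.72-fold (adjusted p = 0.0061). Tapbp, which loads peptides onto class I molecules, was 1.64-fold higher (adjusted p = 0.033), with overlapping groups. B2m, the light chain of class I, gave +0.02 (adjusted p = 0.973). Like Psmb9 and Psmb10 it followed the sets. B2m read 10.69, 11.58, 11.51 and 10.67 in untreated and 10.52, 11.61, 11.57 and 10.84 in TGF-beta replicates 1 to 4, so that replicates 2 and 3 were the high ones in both groups. It was chosen after its values were seen. B2m was the only 1 of the 17 tested genes (5.88%) whose values did not overlap between the sets, against 15% of all tested genes. Of all tested genes 9.57% rose and 14.9% were higher at that unadjusted threshold. The count of 4 became 6 with the replicate block and 5 within replicates 2 and 3. The block added Irf9, a subunit of the interferon-activated transcription factor (+0.73, limma adjusted p = 0.097 without the block and 0.0051 with it). It also added Isg15, an interferon-induced ubiquitin-like protein (+0.82, adjusted p = 0.154 without the block and 0.017 with it). Isg15 was detected on 2 untreated and 3 TGF-beta arrays. Its TGF-beta values ran from 4.80 to 6.81, the highest in replicate 3. The count was 2 without untreated replicate 1 and within replicates 1 and 4, and 1 after median scaling. Laptm5, an immune cell marker detected on 7 of 8 arrays, gave 5.24 ± 0.45 and 6.01 ± 0.42 (SD, n = 4), higher in all 4 pairs with overlapping groups (+0.77, adjusted p = 0.068, and 0.0038 with the block). The part of Laptm5 in these counts was not tested. Of the other immune markers with a probe, Cd3e gave +0.24 (limma adjusted p = 0.429) and Cd52 +0.26. Ptprc gave -0.09 and Itgam -0.23. Ptprc, Itgam and Cd52 failed the detection filter. Irf9, Isg15 and Laptm5 were chosen after their values were seen.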

How the data were processed

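Per the file headers, the deposited scanner table gives each of 45281 probes on each of 8 arrays its intensity before normalization and a p-value of detection. The authors' deposited value table is on a log2 scale, with a median of 7.1 over all its values, and looks quantile normalized. No source used here names the method of that table, the scanner software or the summarisation. Depth has no meaning for arrays, and their number limits the precision.

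Intensities were background corrected (normexp from the detection p-values, offset 16), quantile normalized and put on log2 with limma 3.58.1 in R 4.3.3. Of 15573 probes detected at p under 0.05 on at least 4 arrays, all were fitted with lmFit and eBayes (group alone, two-sided) and adjusted with the Benjamini-Hochberg method at a threshold of 0.05. A gene was represented by its brightest tested probe. Names came from the platform annotation (34885 probes with 1 symbol, 18 with several, 10378 unlisted). Levels are means ± SD over 4 samples, and intervals are 95% confidence intervals of the fit.

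Named by rule were proteasome and partner genes past the threshold and, whatever their values, Psmb5 to Psmb10, Psmc1 to Psmc6, Psmd4, Psmd11, Psmd14, Psme1 to Psme4 and Psmg1 to Psmg4; other genes were named after their values were seen. Members and lists were chosen with earlier results of these data known, so none is independent support. After subtracting group means, samples with the same number correlated at 0.512 to 0.554 over the tested probes. Over the tested proteasome probes alone these correlations were 0.105, 0.208, 0.405 and 0.570 for replicates 1 to 4. The numbers were taken as pairs from the data over all tested probes, not the labels, and a replicate block was an alternative. Other alternatives were a block for, and fits within, the sets of replicates, other background, scaling, filter, variance, weight, probe and threshold settings, the authors' values, and leaving out each sample. The fit was tested on simulated data.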

Additional observations from a re-analysis of the deposited data

Results flagged for a closer look

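Among 82 groups of 4 values (41 genes, 2 groups each), 1 held a sample far from the other 3. In TGF-beta replicate 3, Psmb1 read 11.18, while the other 3 treated samples lay between 10.90 and 10.91. Chance flags about 1 in 20 such groups.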

How the results depend on the processing

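Psmg2 and Psmc3ip kept their fall without any one sample, and Psmc3ip passed under all 22 alternatives; Psmg2 missed the threshold in replicates 1 and 4 alone. Of 898 values of single proteasome genes under the alternatives, 14 lost a call (13 of them Psmg1, 1 Psmg2), 10 gained one (Psmd7, Psmd8 and Psmg3) and 0 called values changed sign; 24 genes without a call changed sign at least once. The cause of these changes was not tested.

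The count of proteasome genes higher, 0, became 1 with the replicate block, with the set as a block, without background correction and on the authors' values, each time Psmd8. The count lower, 3, became 5 with either block and 1 in replicates 1 and 4 alone, and was 2 to 3 when single samples were left out. The median of the proteasome genes moved to -0.16 with median scaling and to +0.0305 with cyclic loess, where all genes moved to -0.18 and -0.01; without single samples it ran from -0.06 to 0.00. Of all genes, 1302 rose and 1566 fell with the replicate block, 1308 and 1580 with the set as a block, and 475 and 361 at an adjusted p under 0.01. With median scaling 495 rose, and the share of rises among calls went from 49.2% to 34.5%. Leaving out single samples gave 663 to 756 rises and 572 to 805 falls, the 572 without untreated replicate 1. The antigen presentation count of 4 became 6 with either block, 5 in replicates 2 and 3 alone, 2 in replicates 1 and 4 alone, 1 with median scaling, 2 without the detection filter, 2 at an adjusted p under 0.01, and 2 to 4 without single samples. The number of proteasome genes with a different effect between the sets was 0 under each setting run. Signals near the lowest detected level limit Psmb9, Psmd2, Psmd6 and Psmd9, and the partner gene Isg15.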
